A study of Mus musculus with 2 samples.

Results

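The Schlafen genes are a family of mouse genes that lie side by side on chromosome 11. The 7 members described here, Slfn1, Slfn2, Slfn3, Slfn4, Slfn5, Slfn8 and Slfn9, were taken by their symbols from a table of 54680 loci, and the family was selected on the ratio of its FPKM values between the 2 libraries, which was already known. The libraries were RNA sequencing libraries of CT26, a mouse colon carcinoma line, 1 in each group. The knockdown group (CT26shSetdb1) had been infected with a lentivirus for a short hairpin RNA that targets Setdb1, and the control group (CT26shCtrl) carried the empty lentiviral vector. Setdb1 encodes a methyltransferase of histone H3 lysine that acts in gene silencing. Both cultures were grown for 6 days, and the labels call the knockdown cells differentiated. The genotype labels are Setdb1 knockdown for the knockdown group and wild type for the control group. Whether the knockdown cells were a clone or a pool is not given in the sources used here.

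Schlafen proteins share an amino-terminal domain that binds nucleic acid, and human members are known to cleave transfer RNA or to restrict viral translation. Several family members are known as interferon-stimulated genes, and the mouse genes are known mainly from T cells and myeloid cells. The short members (Slfn1 and Slfn2) hold little more than this domain, the intermediate members (Slfn3 and Slfn4) extend it, and the long members (Slfn5, Slfn8 and Slfn9) add a helicase-like region. In the GENCODE M21 annotation the longest coding sequence measured 1011 bases for Slfn1 and 1134 for Slfn2. It measured 1920 bases for Slfn3 and 1806 for Slfn4. For Slfn5 it was 2652 bases, and for both Slfn8 and Slfn9 it was 2730.

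The reads assigned to the 54680 loci summed to 18421604 (control) and 19045830 (knockdown). These sums are the library totals used below, and reads not assigned to a locus are not in them. Setdb1 itself had 10.4 FPKM and 1340 reads in the control library. In the knockdown library it had 2.47 FPKM and 317 reads, 23.7% of the control level. FPKM is a count of fragments scaled by gene length and by depth. With 1 library a group, no difference given here can be set against a spread between replicates, and the values describe these libraries. Intervals are 95% exact intervals (Poisson for a level, Clopper-Pearson for a ratio), and they cover counting error only, since each group had 1 library. Reads copied by PCR are not independent molecules, so the intervals can be too narrow even for that error. Of 10 markers of colon epithelium, 3 (Krt18, Krt19 and Krt20) reached 1 FPKM, while the defining genes Epcam and Cdh1 had 0 reads in both libraries. The log2 ratios of (FPKM + 1) were 1.23 for Krt18, 1.30 for Krt19 and 2.59 for Krt20, all past 2-fold, as were 6.81% of all 10671 genes that reached 1 FPKM in at least 1 library. Krt19 reached 1 FPKM only in the knockdown library, with 1 read against 53. Of 12 leukocyte markers, 2 reached 1 FPKM and 5 (among them Cd3e, Cd8a, Itgam and Adgre1) had 0 reads in both libraries, and Ptprc, the common leukocyte antigen, had 0 reads against 4. The summed level of the 12 was 33.2 FPKM in control cells and 143 FPKM after knockdown, mostly from those at 1 FPKM, Cd68 (10.4 and 100.2 FPKM, log2 ratio 3.15) and Cd14 (21.7 and 41.3 FPKM, log2 ratio 0.90). CT26 comes from the BALB/c strain, whereas the reference is C57BL/6J, and differences between the strains at these loci were not examined.

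Promoter sequences are shown first, to set what the start regions of the members share beside the levels that follow. Each window runs from 250 bases before to 50 bases after the start site in RefSeq (GRCm38.p6), and all 7 members were matched. The window of Slfn5 starts from a site 753 bases away from the gene start in the deposited table. In the first set, capitals mark the core of the interferon-stimulated response element, which is GAAA, any 2 bases and GAAA again, read on either strand.
Slfn8 at chr11:83020761-83021060, minus strand: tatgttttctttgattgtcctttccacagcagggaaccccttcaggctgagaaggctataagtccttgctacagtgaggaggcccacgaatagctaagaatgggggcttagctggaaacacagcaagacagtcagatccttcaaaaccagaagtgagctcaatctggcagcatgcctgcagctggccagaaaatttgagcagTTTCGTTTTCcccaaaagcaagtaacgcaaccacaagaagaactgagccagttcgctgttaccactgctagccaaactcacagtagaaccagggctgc
Slfn9 at chr11:82991781-82992080, minus strand: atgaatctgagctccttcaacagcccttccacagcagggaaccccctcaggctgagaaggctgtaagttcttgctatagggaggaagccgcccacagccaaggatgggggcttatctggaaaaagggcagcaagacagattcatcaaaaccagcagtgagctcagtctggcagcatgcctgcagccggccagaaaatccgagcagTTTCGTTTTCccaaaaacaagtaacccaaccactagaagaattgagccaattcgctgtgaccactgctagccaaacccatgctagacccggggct
Slfn5 at chr11:82951852-82952151, plus strand: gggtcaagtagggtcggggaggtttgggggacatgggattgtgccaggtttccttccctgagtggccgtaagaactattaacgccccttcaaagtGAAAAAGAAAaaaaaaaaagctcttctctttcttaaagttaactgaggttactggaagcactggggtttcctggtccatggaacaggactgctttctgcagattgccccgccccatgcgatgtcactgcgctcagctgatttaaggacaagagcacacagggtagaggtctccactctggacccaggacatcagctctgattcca
Slfn8 and Slfn9 held the same 10 letters, with 38 and 35 bases between the match and the start site. Their windows were 84.9% identical over 292 aligned bases. In Slfn5 the match ended 145 bases before the start site. The core was found in 3.44% of all 32851 promoter windows. The windows of Slfn1, Slfn2, Slfn3 and Slfn4 did not hold it. None of the 7 windows held TTCNNNGAA, the core of the gamma-activated sequence, which 8.30% of all windows held.

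The window of Slfn2, the member with the largest difference, is shown with a shorter pattern in capitals, AANNGAAA, the core bound by interferon regulatory factors, on either strand. This pattern was chosen after the first search, it lies within every match to the longer core, and 23.9% of all windows held it.
Slfn2 at chr11:83064862-83065161, plus strand: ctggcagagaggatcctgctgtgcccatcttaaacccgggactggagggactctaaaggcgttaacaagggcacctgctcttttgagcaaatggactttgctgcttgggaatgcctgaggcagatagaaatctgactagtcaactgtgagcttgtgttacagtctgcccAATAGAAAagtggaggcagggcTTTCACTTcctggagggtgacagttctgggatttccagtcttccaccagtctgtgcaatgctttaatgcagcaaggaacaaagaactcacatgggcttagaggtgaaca
Slfn2 had 2 such matches, 73 and 51 bases before the start site. Every other member's window held at least 1 match as well.

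The short and intermediate members, all on the plus strand, also shared a stretch near the start site. The longest stretch common to their 4 windows was ACTTCCTGG, which was looked for after the sequences were seen and stood in 0.843% of all windows on either strand. It is shown in capitals with its surroundings.
Slfn1: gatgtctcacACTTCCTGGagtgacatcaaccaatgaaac
Slfn2: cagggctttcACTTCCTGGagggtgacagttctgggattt
Slfn3: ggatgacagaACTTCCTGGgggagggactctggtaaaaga
Slfn4: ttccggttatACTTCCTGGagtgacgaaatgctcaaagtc
The stretch lay 65 bases before the start site in Slfn1, 46 in Slfn2, 33 in Slfn3 and 64 in Slfn4. In Slfn2 it overlaps the second AANNGAAA match. The levels of these genes are described next. Whether the shared stretch has a part in them was not tested, since it was chosen for being in all 4 windows.

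The 7 members differed in both level and direction. On the log2 ratio of (FPKM + 1), knockdown over control, 2 members were at least 2-fold higher, and 0 reached 2-fold in the other direction. Among all 10671 genes that reached 1 FPKM in at least 1 library, 6.81% passed 2-fold upwards and 4.85% downwards. The members were chosen with this contrast known, so nothing is read from their count. The median log2 ratio of the 7 members was 0, and that of the 10671 genes was -0.00039. Only 3 members reached 1 FPKM, and Slfn2 and Slfn8 did so only in the knockdown library. In all, 4 members had more than 3 reads in at least 1 library, and 3 members had at most 3 reads in both.

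**Figure D1:**
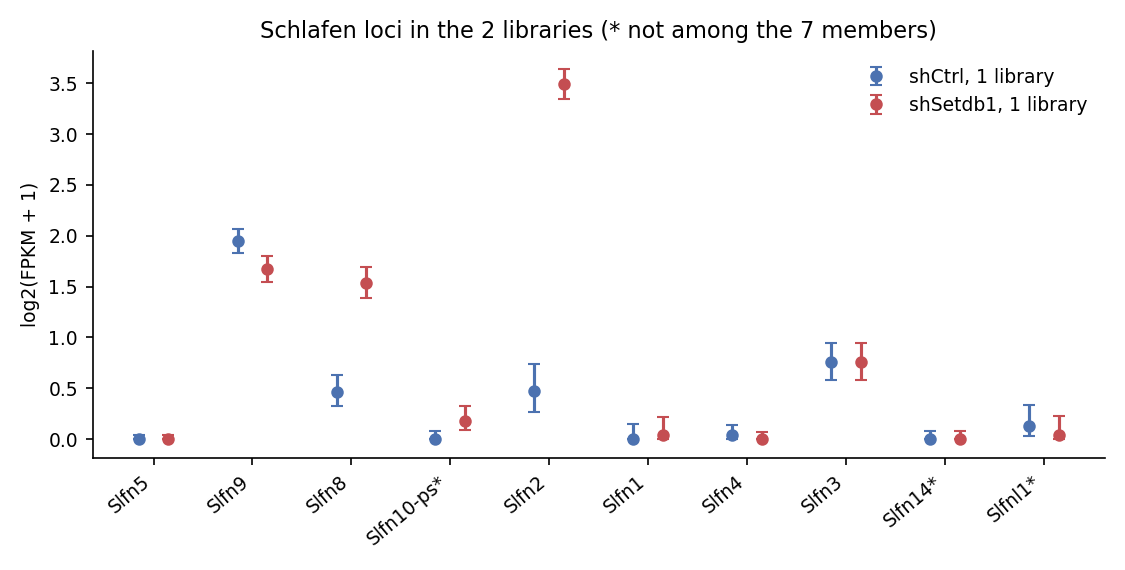
Level of each Schlafen locus as log2(FPKM + 1) in the control library (blue) and the knockdown library (red), in chromosomal order with Slfnl1 of chromosome 4 last; bars are 95% Poisson counting intervals of 1 library each. Slfn2 and Slfn8 are higher in the knockdown library, Slfn9 is slightly lower, Slfn3 is equal, and the other loci lie near 0.

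Slfn2 (ENSMUSG00000072620, plus strand of chromosome 11, 83065112 to 83070678 in GRCm38) is the short member known to keep T cells and monocytes quiescent. Its level was 0.385 FPKM in the control library, from 12 reads, with an interval of 0.199 to 0.673 FPKM. In the knockdown library it was 10.3 FPKM, from 320 reads, with an interval of 9.17 to 11.5 FPKM. The log2 ratio of (FPKM + 1) was 3.02, and the read ratio, relative to each library's total, was 25.8 with an interval of 14.6 to 50.4. Of the 10671 genes, 28 had a higher log2 ratio. Slfn2 went from a trace to the highest level in the family, although 4557 genes were above it in the knockdown library. In bulk RNA, more cells with the transcript and more transcript per cell cannot be told apart. The markers Cd68 and Cd14 were also higher in the knockdown library, and their part in this result was not tested. Of the other leukocyte markers, Lyz2 had 23 reads in the control and 21 in the knockdown library, and Ptprc had 0 and 4.

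Slfn8 (ENSMUSG00000035208, minus strand, 83002158 to 83020810) is a long member, related to the human SLFN11 and SLFN13 group. It had 0.378 FPKM in the control library (29 reads, interval 0.253 to 0.544 FPKM) and 1.91 FPKM in the knockdown library (146 reads, interval 1.61 to 2.24 FPKM). The log2 ratio was 1.08, and its counting interval of 0.86 to 1.26 crosses the 2-fold line on this scale, which understates the change of low genes. The read ratio was 4.87 (3.25 to 7.53), and 631 of the 10671 genes had a higher log2 ratio. Slfn2 and Slfn8 started from levels with overlapping intervals in the control library and were far apart in the knockdown library. The conditional estimate of the Slfn2 read ratio over that of Slfn8 was 5.28 (exact conditional interval 2.53 to 11.7).

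Slfn9 (ENSMUSG00000069793, minus strand, 82978390 to 82991830) is the long member next to Slfn8 and its closest relative here. It was the most highly expressed member in the control library, at 2.86 FPKM (320 reads, interval 2.56 to 3.20 FPKM). In the knockdown library it was at 2.19 FPKM (245 reads, interval 1.93 to 2.49 FPKM). The log2 ratio was therefore -0.28, with 0.741 as the read ratio (0.624 to 0.877). This interval leaves out 1 but covers counting error only, and the difference was well under 2-fold. A higher log2 ratio was found for 7433 of the 10671 genes, so many genes were lower still. In this comparison of 1 library with 1, Slfn8 was higher and Slfn9 lower. Their coding sequences were 92.7% identical over 2730 bases, and both promoter windows held the same match to the response element core. Whether the match has a part in their levels was not tested. The conditional estimate of the Slfn8 read ratio over that of Slfn9 was 6.56 (4.22 to 10.5).

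Slfn3 (ENSMUSG00000018986, plus strand, 83191330 to 83215154) is the intermediate member studied in the differentiation of intestinal epithelium. It had 0.689 FPKM and 44 reads in each library, with an interval of 0.50 to 0.924 FPKM. The read ratio was 0.967 (0.622 to 1.5), so the counts leave room for a difference within these bounds. Its relative Slfn4 (ENSMUSG00000000204, 83175186 to 83190216), an intermediate member of myeloid cells with a coding sequence 92.7% identical to that of Slfn3 over 1785 aligned bases, had 2 reads in the control library, against 0 after knockdown.

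Slfn1 (ENSMUSG00000078763, 83116849 to 83122670), the founding member, first described in developing thymocytes, had 0 reads in control cells and 1 after knockdown. Slfn5 (ENSMUSG00000054404, 82951349 to 82964840), a long nuclear member known as an interferon-stimulated gene in several cell types, had 0 reads in both libraries. For Slfn5, 0 reads allow a level of up to 0.0253 FPKM when the limit is taken as 3 reads, and the exact Poisson interval ends at 0.0311 FPKM. Slfn5 was thus not detected in the knockdown library. Its window carries the response element core, but the start site used lies away from the gene start in the deposited table. Whether this core acts in these cells was not tested. The upper end of that interval was 0.160 FPKM for the 1 read of Slfn1 and 0.0973 FPKM for the 2 reads of Slfn4. No ratio is given for these 3 genes, because both libraries are at or under the floor of 3 reads.

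The order of levels changed between the libraries. In the control library it was Slfn9, then Slfn3, Slfn2 and Slfn8, and then Slfn4 with Slfn1 and Slfn5 at 0. The intervals of Slfn3, Slfn2 and Slfn8 all overlapped one another there. In the knockdown library the order was Slfn2, Slfn9, Slfn8 and Slfn3, with overlapping intervals for Slfn9 and Slfn8. The summed level of the 7 members was 4.34 FPKM in control cells and 15.1 FPKM after knockdown. Slfn9 made up 65.9% of the sum in control cells and 14.5% after knockdown. For Slfn2 these shares were 8.86% and 68.1%, for Slfn8 8.71% and 12.6%, and for Slfn3 15.9% and 4.57%. The family moved from a make-up led by a long member to one led by a short member.

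**Figure D2:**
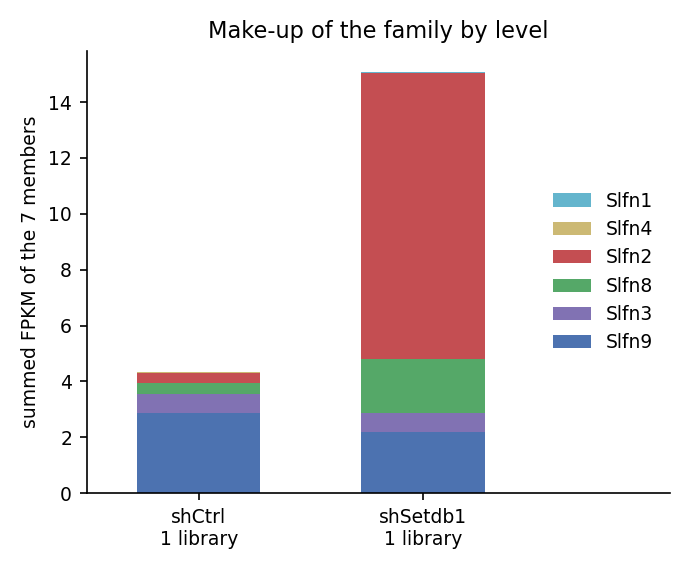
Summed FPKM of the 7 members in each library (1 library a bar, no error bar), split by member. The bar grows from 4.34 to 15.1 FPKM, and Slfn2 takes 8.86% of the first and 68.1% of the second.

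A sum over the members does not depend on how reads were divided among them. It does depend on reads given to other loci, such as Slfn10-ps, or dropped for mapping to several places. The summed reads were 407 (control) and 756 (knockdown), a read ratio of 1.80 (1.59 to 2.03). This sum rests on Slfn2: without it the sums were 395 and 436 reads, a ratio of 1.07 (0.93 to 1.23), within counting error of 1. Without Slfn9, the member with most reads, the ratio was 5.68. Over all loci with a symbol starting with Slfn, it was 1.81.

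**Figure D3:**
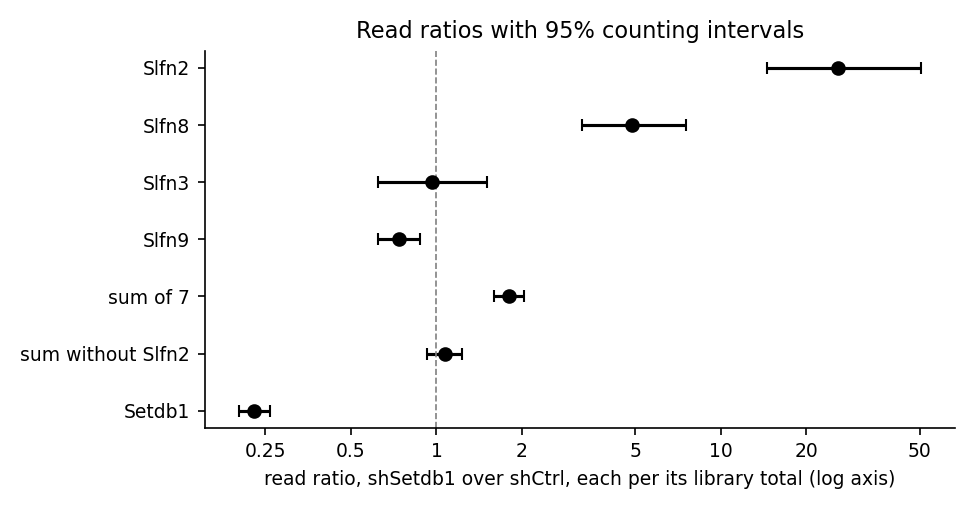
Read ratio, knockdown over control relative to each library's total, on a log axis, for the 4 members with more than 3 reads, their sums and Setdb1; points are single comparisons of 1 library with 1, bars are 95% Clopper-Pearson intervals. Slfn2 lies at 25.8 and Slfn8 at 4.87, Slfn3 spans 1, and the sum without Slfn2 spans 1.

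Other loci of the family had few reads. Slfn10-ps (83028130 to 83040042), a transcribed pseudogene between Slfn8 and Slfn2, had 0 reads in control cells and 9 (0.133 FPKM) after knockdown. With the control set to a floor of 3 reads it was at least 2.90-fold higher, while the lower end of the counting interval was 1.91. Slfn14, a long member known from platelets and reticulocytes, and Slfn5os, the antisense gene of Slfn5, had 0 reads in both libraries. Slfnl1, a Schlafen-like gene on chromosome 4, had 3 reads and 1 read.

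Reads could be shared among these loci, so the sequences were compared. In the deposited table Slfn2, Slfn3 and Slfn4 carry the same Swiss-Prot entry, an orangutan SLFN12L protein, and Slfn9 shares its entry with Slfn10-ps. Slfn1 shares a human SLFN12 entry with the pseudogene Gm11427, which had 0 reads. The reads of the 3 loci with the SLFN12L entry summed to 58 (control) and 364 (knockdown). These entries are matches between proteins, so the nucleotide sequences were compared directly. Of the distinct stretches of 100 bases in the annotated transcripts of Slfn2, 99.9% occurred at no other gene of the annotation. The share was 96.6% for Slfn8 and 96.3% for Slfn9, whose commonest partner was Slfn10-ps for both. It was 97.1% for Slfn3. At 50 bases the shares were 95.7% for Slfn2, 85.4% for Slfn8, 88.1% for Slfn9 and 84.0% for Slfn3. At 150 bases they were 100% for Slfn2 and Slfn8, 98.5% for Slfn9 and 98.7% for Slfn3. The read length and the treatment of reads that map to several places are not given in the sources used here. Among the members, only Slfn5 had exon bases in common with another annotated gene, 559 bases or 8.84% of its exons, with Slfn5os. The model of Slfn2 overlaps the antisense gene Gm20234, which had 0 reads in both libraries, but their exons share no base.

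**Figure D4:**
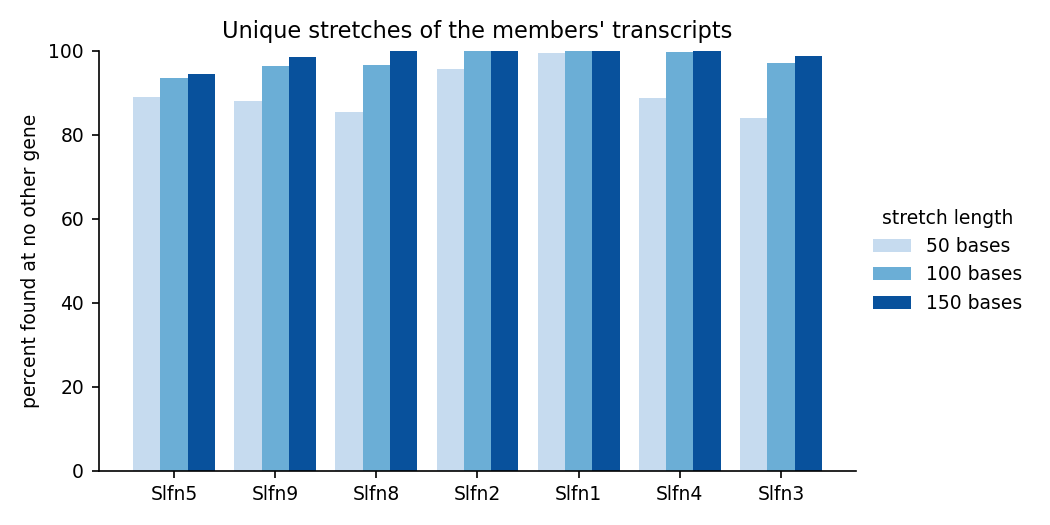
Percent of distinct stretches of 50, 100 or 150 bases in each member's annotated transcripts that occur at no other annotated gene, on either strand. The lowest member is Slfn5 at 100 bases, with 93.6%, and Slfn3 at 50 bases, with 84.0%.

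The members spanned 264 kb of chromosome 11, and the loci around them were taken by position alone. Within 500 kb of the outermost members there were 60 other loci, of which 14 reached 1 FPKM. Of these 14, 2 were at least 2-fold higher, 1 was lower by 2-fold or more and 11 were between, with a median log2 ratio of -0.02. The shares over all 10671 genes were 6.81% (higher) and 4.85% (lower). The 2 higher loci were chemokine genes on one side of the cluster. Both reached 1 FPKM only in the knockdown library, so the filter kept them through the library where they were high. Ccl5, which attracts T cells, had 0.779 FPKM (14 reads) in control cells and 22.4 FPKM (402 reads) after knockdown, 311 kb from the nearest member. Ccl4 had 0 and 28 reads, at least 9.03-fold higher against that floor, with an interval that starts at 6.87. The lower locus was Taf15, an RNA-binding factor of transcription, with a log2 ratio of -1.01 and 1180 reads against 559. Its counting interval of -1.14 to -0.87 crosses the 2-fold line.

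None of the 11 remaining loci reached 2-fold on the scale of (FPKM + 1). On one side, Nle1, a ribosome assembly factor 42.9 kb away, had a log2 ratio of -0.86, Rad51d, a recombination gene, 0.04, and the ubiquitin ligase gene Rffl 0.38. On the other side the clathrin adaptor gene Ap2b1 had 0.14. Further loci were Lig3 (DNA ligase, -0.11), Zfp830 (0.11), Gm11423 (-0.09), 1700020L24Rik (0.07), Mmp28 (-0.14) and the chemokine gene Ccl9 (-0.70). Ccl9 had 107 reads against 44, a read ratio of 0.398 (0.273 to 0.57), which is past 2-fold lower on that scale. Of the 15 other loci between the outermost members, 12 had 0 reads in both libraries and 0 reached 1 FPKM. Apart from the members themselves, the cluster thus held loci that were silent or nearly so.

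**Figure D5:**
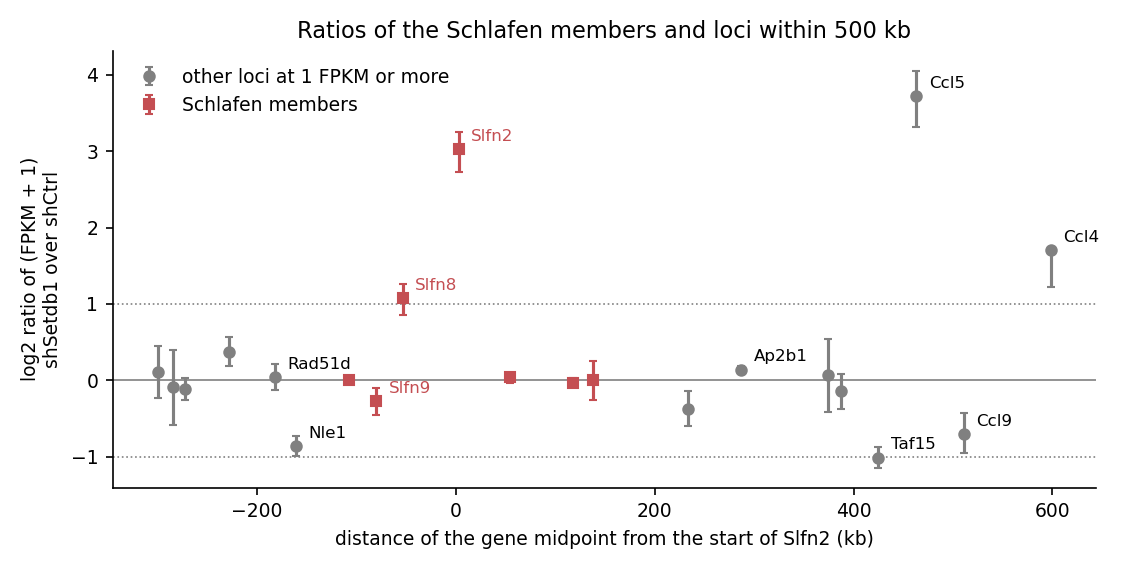
Log2 ratio of (FPKM + 1), knockdown over control, of the 7 members (red squares) and the 14 other loci at 1 FPKM or more within 500 kb (grey circles), against the distance of the gene midpoint from the start of Slfn2; bars are 95% counting intervals and dotted lines mark 2-fold. Slfn2, Slfn8, Ccl5 and Ccl4 lie above the upper line, and the loci nearest to the cluster lie between the lines.

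Type I interferon signalling, the pathway that induces several Schlafen genes, was described by a list of 14 genes, chosen with earlier results of these data known. All 14 reached 1 FPKM, 6 were at least 2-fold higher and 0 passed 2-fold downwards, beside 6.81% and 4.85% of all 10671 genes, with a median log2 ratio of 0.87. The receptor genes Ifnar1 (0.21) and Ifnar2 (0.08) and the kinase gene Tyk2 (0.57) had small positive ratios, and the kinase gene Jak1 had the lowest of the list, -0.35. Genes of the transcription factor complex formed after receptor signalling were higher: Stat2 had 5.21 and 27.5 FPKM, and Irf9 6.34 and 26.0 FPKM. Irf7, a factor that amplifies the response, had the highest log2 ratio, 4.91. Among feedback genes, Usp18 was at 9.18 and 86.1 FPKM and Socs3 at 7.59 and 17.8 FPKM, while the negative regulators Socs1 (log2 ratio 0.84) and Ptpn2 (0.33) were under 2-fold on the (FPKM + 1) scale. Slfn2 and Slfn8 were higher in the same library as these genes, whereas Slfn9 was lower there and Slfn5 was not detected.

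Human SLFN11 is known to act at stalled replication forks, and 15 genes of that process were listed for comparison. Of these, 13 reached 1 FPKM, and 0 of them were 2-fold higher or lower, with a median of 0.0017. The shares over all 10671 genes were 6.81% (higher) and 4.85% (lower). With 13 genes, a count of 0 cannot show whether this list differed from those shares. Rpa1, a subunit of the single-strand binding protein, had the highest ratio (0.50), and Cul4b, a ubiquitin ligase scaffold, the lowest (-0.53). The other 2, the checkpoint kinase genes Chek1 and Atr, were under 1 FPKM in both libraries and lower after knockdown, with read ratios of 0.287 (64 and 19 reads, interval 0.162 to 0.485) and 0.412 (68 and 29 reads, interval 0.257 to 0.646). Slfn3 is known for enterocyte differentiation, but of 10 enterocyte genes only Krt20, a keratin of mature enterocytes, reached 1 FPKM, at 5.07 and 35.6 FPKM (log2 ratio 2.59). Sucrase-isomaltase (Sis) had 4 and 0 reads and villin (Vil1) 1 and 7 reads. The equal level of Slfn3 in the 2 libraries thus stood beside a higher Krt20 and near-silent brush border genes.

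The genes closest to Slfn2 in level were sought among the other protein-coding genes at 1 FPKM or more, by the Euclidean distance of log2(FPKM + 1) over the 2 libraries. The 5 nearest were Csf2, a growth factor of granulocytes and macrophages (distance 0.114), Cxcl10, an interferon-induced chemokine (0.174), Ifit3, an interferon-induced antiviral gene (0.220), Vwa1, an extracellular matrix gene (0.235), and Phf11b (0.332). Their control levels ran from 0.177 to 0.496 FPKM and their knockdown levels from 8.07 to 12.1 FPKM. With 2 libraries, the likeness rests on 2 values a gene.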

How the data were processed

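The authors deposited FPKM values for 54680 loci, per the file headers, with gene position and length. The submitters' processing notes name CASAVA, HISAT2, featureCounts 1.5.0-p3 and the build GRCm38, without roles; use of strand is not given in the sources used here. All 11 Schlafen loci had the positions and exon lengths of GENCODE M21. FPKM times gene length came out as whole reads for 100% of values above 0 in both libraries (tolerance 0.01). Both libraries had been divided by a common depth of 18731117 reads, so FPKM ratios carry the 1.03 ratio of the totals. Log2 ratios used a pseudocount of 1 FPKM. Read ratios used each library's own total, with a floor of 3 reads. No p-value was computed, since each group had 1 library. The calculations were tested on simulated counts.

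The members, gene lists and naming rule were chosen with earlier results of these data known. Named were Setdb1, all loci with a Schlafen symbol, loci within 500 kb at 1 FPKM or more, the 5 genes nearest to Slfn2, and the extremes of each list; further list genes were chosen after their values were seen. A few of the genes counted are not reported here by name. Alternatives were a pseudocount of 0.1, 3 other scalings, other folds and filters, sums over Swiss-Prot entries and a window of 1 Mb. Leaving out Slfn2, read ratios in place of FPKM ratios, and the motifs AANNGAAA and ACTTCCTGG were chosen after seeing the data. The tools were scipy 1.17.1, Biopython 1.88, pandas 2.3.3, matplotlib 3.10.9 and numpy 2.4.6 under Python 3.11.15.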

Additional observations from a re-analysis of the deposited data

How the results depend on the processing

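Of 151 alternative values over 29 results, 135 lay inside the counting interval or, for counts, within a factor of 1.5, 16 moved, and 0 values past 2-fold changed direction. List medians were judged against the median of their genes' interval bounds. Values near 0 did change sign: the median of the replication fork list (0.0017) was -0.043 with each library's own total, -0.0555 with the upper quartile and -0.0465 without a filter, and Slfn3 (0) lay between -0.0481 and 0.00102. No paired analysis was possible because there was 1 library per group, which also means that none could be left out. With the pseudocount of 0.1, which shrinks the value less, Slfn2 had a log2 ratio of 4.42 and Slfn8 2.07. The medians of the enterocyte and colon epithelium lists were then both 2.79, which is the value of Krt20, a gene on both lists. Krt20 was the only enterocyte gene at 1 FPKM and the middle of 3 colon epithelium genes. With this pseudocount, 2 neighbouring loci in place of 1 were at least 2-fold lower. As log2 ratios of reads, Slfn2 was at 4.69 and Slfn8 at 2.28. At 4-fold, 1 member in place of 2 was higher. The median of the members at 1 FPKM or more was 1.08, a filter that keeps Slfn2 and Slfn8 only through the knockdown library. The summed read ratio was 5.68 without Slfn9 and 1.07 without Slfn2. Without a filter the list medians were 0.0118 (enterocyte), 0 (leukocyte) and 0.0777 (colon epithelium), since genes with few or no reads were added. Of the scalings, the upper quartile shifted all genes most: for genes at 1 FPKM in both libraries the median became -0.0544. Depth limits Slfn1, Slfn4 and Slfn5, which had at most 3 reads.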

Other observations

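CG pairs, the sites of DNA methylation in mammals, were counted in the promoter windows of the members. Over 300 bases Slfn2 had 2, Slfn8 4, Slfn3 5, Slfn1, Slfn5 and Slfn9 6 each, and Slfn4 7, where the median of all windows was 7. Whether these counts go with the differences between the members was not tested.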
